A study of Mus musculus with 6 samples.

Results

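In 889 cells, 126 genes that had reads in every sgcontrol library were at or near 0 in every library labelled sgkiaa1522. The genes were chosen by raw counts: at most 3 in each sgkiaa1522 library and more than 3 in each sgcontrol library, leaving out the mast cell proteases Mcpt2 and Mcpt4. They were 126 of the 34745 genes listed in the files. Of the 12493 genes with more than 3 counts in each sgcontrol library, 1.02% met the rule when Mcpt2 and Mcpt4 were counted. Because these counts chose the genes, their difference between the groups is given as a description, and no test is used to support it. Only 6 of the 126 had at least 30 counts in each sgcontrol library: Dclk1, Sptssb, Rnf122, C3, Armc2 and Spata20. The other 120 were genes of low level, and 38 of them had exactly 4 counts in their lowest sgcontrol library, 1 count above the ceiling.

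The cells were 889, a murine lung cancer line from the C57BL/6 strain, and all of them expressed Cas9. In the 3 sgcontrol libraries the cells carried a control sgRNA, and in the 3 sgkiaa1522 libraries they carried kiaa1522 sgRNA and were labelled as KIAA1522-downregulated. The study used them to ask which genes depend on KIAA1522, a protein of the Nance-Horan syndrome (NHS) family. The sources used here do not give whether the sequenced cells were a clone or a pool, which sgRNA they carried, or whether the replicates were separate cultures, so the spread between libraries may be technical. The libraries held between 12220001 and 18609376 counts, and sgkiaa1522 replicate 1 was the shallowest. Levels per library are given as CPM, counts scaled to the size of the library, and 3 counts correspond to 0.247 CPM in that library and to 0.162 to 0.180 CPM in the other 5. Counts of the targeted gene itself (C77080 in the files) were 2214, 2404 and 2064 without and 2554, 3726 and 3667 with its sgRNA. Its mRNA was thus higher in the sgkiaa1522 libraries, by 0.73 on the log2 scale (adjusted p = 9.1e-05, edgeR). The paper describes these cells as depleted of KIAA1522, and mRNA counts do not measure the protein. The libraries are therefore called by their labels here. Of 12 epithelial markers, 7 had at most 3 counts in every library, and Epcam was at 0 in all 6. Krt8, Krt18, Krt19, Cdh1 and Grhl2 had counts in all libraries, and Cdh1 was called lower (log2 fold change -1.45, adjusted p = 5.1e-05, edgeR).

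A gene can leave the detectable range of a library in several ways. Transcription may stop, the RNA may decay faster, or, in bulk RNA, the few cells that made it may be gone, and fewer cells of a type cannot be told apart from less RNA per cell. For a gene with few reads, the count itself varies from library to library by sampling alone. A low count is therefore read here with its depth, and each fold is given with a 95% interval that covers counting error only.

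The share of genes that met the rule depended on their level. Among genes with 4 to 9 counts in the lowest sgcontrol library, 96 of 806 (11.9%) were at 3 or fewer counts in each sgkiaa1522 library. The share was 24 of 889 (2.70%) at 10 to 29 counts and 7 of 1076 (0.651%) at 30 to 99 counts, Mcpt2 included. From 100 counts to under 300 it was 1 of 2028, which was Mcpt4, and none of the genes with 300 or more counts met it. The mirror rule, more than 3 counts in each sgkiaa1522 library and at most 3 in each sgcontrol library, was met by 142 of 12392 genes (1.15%). By level, the mirror shares were 100 of 848 (11.8%), 28 of 957 (2.93%), 13 of 1232 (1.06%) and 1 of 2457. The 2 directions thus held similar shares at each level, and at 30 to 99 counts more genes met the mirror rule.

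**Figure D1:**
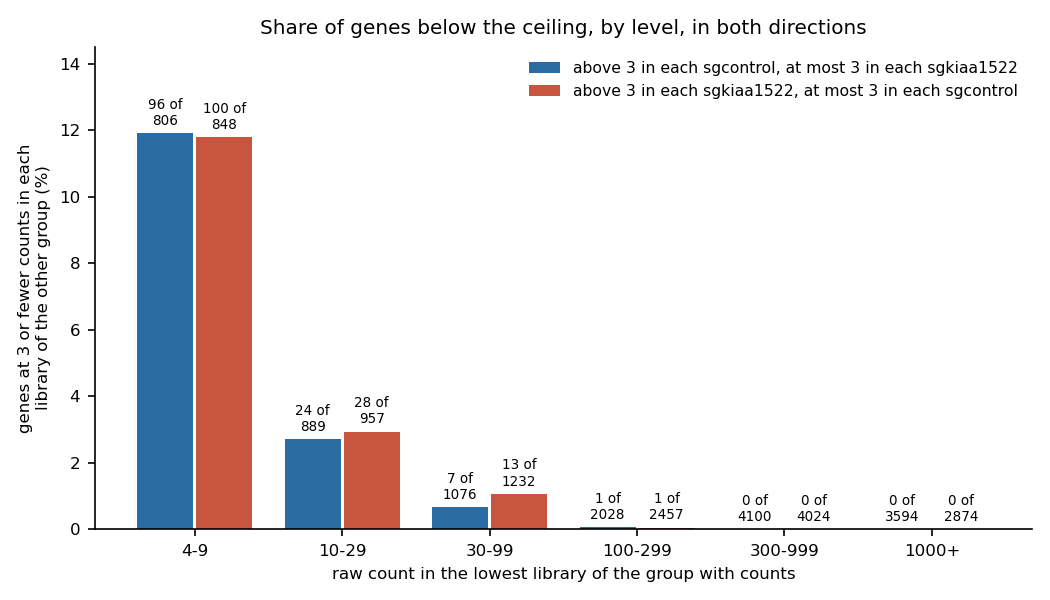
Share of genes (y axis, percent) at 3 or fewer counts in each library of the other group, by the raw count of the gene in the lowest library of the group with counts (x axis). Blue bars are genes lower in the libraries labelled sgkiaa1522 and red bars the mirror rule; the share is 11.9% and 11.8% in the lowest band and 0 from 300 counts upward in both directions.

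The label of a gene as switched off was checked against its counts. Of the 126 genes, 19 had no count in any sgkiaa1522 library, 52 had 1 to 3 counts over the 3 libraries, and 55 had more than 3. The median gene had 24 counts over the sgcontrol libraries and 3 over the sgkiaa1522 libraries. A fold could be computed for the 107 genes with a sgkiaa1522 count, and its counting interval held 1 for 15 of them, all with 4 to 9 counts in the lowest sgcontrol library. Sema3g, a secreted semaphorin, is an example, with 4, 6 and 5 counts and then 3, 1 and 3 (1.93-fold, 0.741 to 5.60). For these 15 genes the data do not show a loss of RNA beyond counting error. For the other genes an interval above 1 is largely fixed by the rule, which used the same counts, so the intervals show only how wide the counting error is.

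Summed over the 126 genes, the sgcontrol libraries held 78.1, 76.7 and 86.4 CPM and the sgkiaa1522 libraries 10.1, 7.96 and 9.42 CPM. Per transcript length, the genes had a median level of 0.529 TPM (counts scaled by exon length and library size) in the sgcontrol libraries, against 17.5 TPM over all genes with more than 3 counts in each. No gene of the 126 passed the study's filter of more than 500 counts over the 6 libraries; their largest sum was 149. In a fit with a filter of at least 10 counts, which all 126 passed, edgeR's quasi-likelihood test called 89 of them lower, where 6.61% of 14301 genes were called lower and 5.53% higher. The rule and this test read the same counts, so nothing follows from that number.

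The 6 genes with at least 30 counts in each sgcontrol library had roles in microtubules, sphingolipid synthesis, ubiquitin transfer, complement and sperm. Their positions are given on GRCm38 with the GENCODE M21 annotation. Dclk1 encodes a doublecortin-like kinase that binds microtubules and marks tuft cells of the gut and airway. It lies on the plus strand at chr3:55242364-55539068. Its sgcontrol counts were 50, 46 and 50 against 2, 0 and 1 for sgkiaa1522, which is 43.9-fold lower (14.7 to 215). Leaving out sgkiaa1522 replicate 1 gave 97.95-fold and leaving out replicate 2 gave 26.9-fold. Its level was 0.467 ± 0.049 TPM in the sgcontrol libraries (SD, n = 3), the lowest of the 6 per length, over an exon length of 15296 bases. The related genes Dclk2, Dclk3 and Dcx, listed by hand for their kinship, had at most 3 counts in every library.

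Sptssb encodes a small subunit of serine palmitoyltransferase, the enzyme that starts sphingolipid synthesis. It lies on the minus strand at chr3:69819542-69859940. Its counts were 45, 44 and 44 for sgcontrol and 0, 2 and 1 for sgkiaa1522, a 40.0-fold difference (13.4 to 196). At 3.56 ± 0.24 TPM (SD, n = 3) it had the highest level of the 6 genes in the sgcontrol libraries, and its 3 counts there differed by 1. Of the subunits it binds, Sptlc1 had a log2 fold change of 0.04 (adjusted p = 0.71) and Sptlc2 of 0.12 (adjusted p = 0.22), both from edgeR's quasi-likelihood test. The other small subunit, Sptssa, had 673, 734 and 658 counts and then 350, 523 and 512, a log2 fold change of -0.43 (adjusted p = 0.0021, same test). The serine palmitoyltransferase inhibitors Ormdl1 and Ormdl2 had log2 fold changes of -0.61 and -0.84, and Ormdl3 of 0.45 (adjusted p = 0.0019, 0.00053 and 0.0052, edgeR). None of these genes passed the study's threshold of 1 on the log2 scale.

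Rnf122 encodes a RING-finger ubiquitin ligase and lies on the plus strand at chr8:31111820-31131482. The counts of 40, 48 and 46 in sgcontrol stood against 0, 3 and 0 in sgkiaa1522, 40.3-fold lower (13.5 to 198). Its close relative Rnf24 had 467, 784 and 494 counts and then 783, 984 and 1191, so the pair differed in opposite directions, Rnf24 by 0.93 on the log2 scale (adjusted p = 0.0042, edgeR).

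C3 encodes the central component of complement, which all routes of complement activation cleave. It lies on the minus strand at chr17:57203970-57228136 and has 41 exons. C3 had 40, 38 and 43 sgcontrol counts, and 2, 1 and 2 remained with sgkiaa1522. C3 was the only one of the 6 with a count in each sgkiaa1522 library, and its fold was the smallest of the 6, 21.8 (9.10 to 68.4). In the sgcontrol libraries it stood at 1.15 ± 0.13 TPM (SD, n = 3).

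Armc2 encodes an armadillo-repeat protein needed to build the sperm axoneme, and it lies on the minus strand at chr10:41914990-42018442. It had 42, 46 and 35 sgcontrol counts, and a single count in sgkiaa1522 replicate 2 was all that was left, a 111-fold difference (19.5 to 4415). Spata20 encodes a spermatogenesis-associated protein with a thioredoxin domain and lies on the minus strand at chr11:94478904-94486179. For sgcontrol the counts were 53, 62 and 33 and for sgkiaa1522 0, 1 and 0, a fold of 133 (23.6 to 5305). The 33 counts of sgcontrol replicate 3 made Spata20 the most variable of the 6, at 2.49 ± 0.65 TPM (SD, n = 3). With 1 count on the low side, the upper bounds of both intervals carry little information, and that count came from sgkiaa1522 replicate 2. Without that library no count of either was left, and the lower bounds against 3 counts over the group were 22.7 for Armc2 and 27.3 for Spata20.

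**Figure D2:**
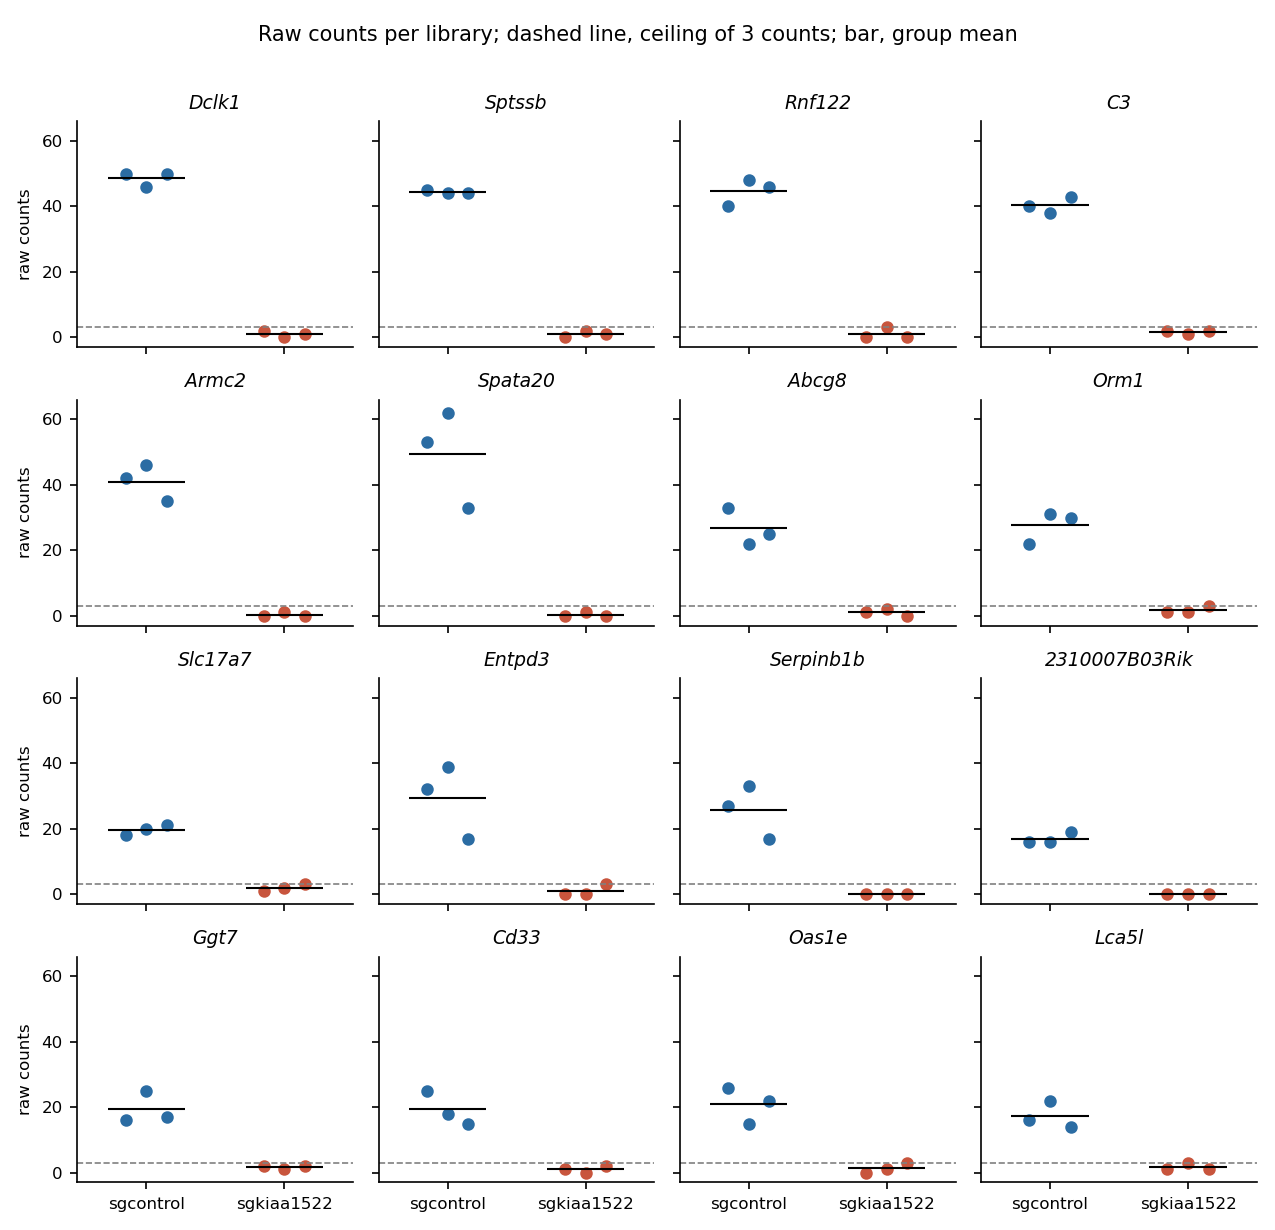
Raw counts (y axis) in each of the 3 sgcontrol (blue) and 3 sgkiaa1522 (red) libraries for the 6 genes with at least 30 counts in each sgcontrol library and the 10 other protein-coding genes with the highest lowest count; bars are group means and the dashed line is the ceiling of 3 counts. Dclk1, Sptssb and C3 vary little among the sgcontrol libraries, while in Spata20, Entpd3 and Serpinb1b replicate 3 is the lowest.

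The genes closest to the thresholds on either side are given here. Below the limit of 30 counts stood Abcg8 with 33, 22 and 25 counts in the sgcontrol libraries, Orm1 with 22, 31 and 30, and Slc17a7 with 18, 20 and 21. Above it the closest were Spata20, Armc2 and C3. Their folds were 133, 111 and 21.8, against 24.04, 14.97 and 8.86 for the genes below. A further 42 genes missed the ceiling by 1 count in 1 library, and none of them had 30 counts in each sgcontrol library. Of these, Tnip3 had 19, 20 and 18 counts and then 1, 4 and 0, Enkur had 20, 15 and 14 and then 4, 1 and 2, and Ugt1a6a had 42, 13 and 32 and then 3, 3 and 4. Mcpt4 and Mcpt2, which the rule leaves out, had 105, 124 and 122 counts and then 0, 0 and 1, and 51, 48 and 58 counts and then 2, 2 and 1.

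Abcg5 and Abcg8, which pair into a transporter that pumps sterols out of cells into bile and the gut, were both among the 126 genes. Abcg8 had 1, 2 and 0 counts in the sgkiaa1522 libraries (24.04-fold lower, 7.94 to 119). Abcg5 had 13, 21 and 23 counts and then 1, 0 and 0 (51.4-fold lower, 8.86 to 2065). In the sgcontrol libraries the partners stood at nearly the same level per length, 1.05 ± 0.27 TPM for Abcg8 and 1.02 ± 0.28 TPM for Abcg5 (SD, n = 3). The genes lie head to head on chromosome 17, and the nearest of their RefSeq starts are 109 bases apart. In GENCODE, transcripts of the pair overlap, and they share 82 exon bases on opposite strands. A further RefSeq start of Abcg8 lies at chr17:84676302, within Abcg5, so that the 109 bases lie inside the longest gene model of Abcg8. They are shown because they separate the 2 nearest starts, once read towards Abcg8 and once towards Abcg5, with capitals for the TATA-box letters TATAAA on either strand.
Abcg8, chr17:84683012-84683120, GRCm38.p6, plus strand: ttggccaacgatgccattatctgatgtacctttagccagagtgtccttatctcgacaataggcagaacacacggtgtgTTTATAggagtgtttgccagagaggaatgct
Abcg5, chr17:84683012-84683120, GRCm38.p6, minus strand: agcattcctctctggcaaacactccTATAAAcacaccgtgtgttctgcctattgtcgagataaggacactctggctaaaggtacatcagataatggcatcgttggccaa
The single match, TTTATA on the plus strand, begins 31 bases before the nearer start of Abcg8. On the minus strand it reads TATAAA and begins 84 bases before the start of Abcg5. Of 32851 RefSeq windows of this length upstream of a start, 5.90% hold these letters. The next gene beyond Abcg5, Dync2li1, a dynein light intermediate chain of cilia, had 1433, 1656 and 1383 counts and then 522, 797 and 640, a log2 fold change of -1.03 (adjusted p = 7.4e-05, edgeR with the filter of 10 counts). Beyond Abcg8, Lrpprc had a log2 fold change of 0.0026.

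Other genes of sterol handling were listed by hand after the 126 genes were known. Npc1l1, which takes up sterols, had 19, 23 and 12 counts and then 60, 72 and 54, a log2 fold change of 1.96 (adjusted p = 0.00073, edgeR with the filter of 10 counts). Abcg2, a transporter of the same family that exports drugs, had 71, 86 and 60 counts and then 11, 11 and 8 (log2 fold change -2.66, adjusted p = 0.00016, same fit). Abcg4 had 15, 23 and 9 counts and then 27, 39 and 29, and Abcg1 was at 0 in all 6 libraries. The sterol-sensing receptors Nr1h3 and Nr1h2 had log2 fold changes of -0.62 (adjusted p = 0.016) and 0.25 (adjusted p = 0.12) in edgeR's test. The ABCG family thus differed in both directions.

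Windows upstream of C3 and Dclk1 are shown as the promoter side of 2 of the 6 genes of highest count. The motifs searched, on both strands, were the TATA box TATAAA, the CCAAT box, the GC box GGGCGG, the AP-1 motif TGANTCA, the CRE motif TGACGTCA, the E-box CACGTG and an NFκB motif, and capitals mark any match. In 250 bases upstream of a start, these letters are found in 12.4%, 33.8%, 32.7%, 6.75%, 1.55%, 6.02% and 0.140% of the RefSeq windows, in that order. Dclk1 has 2 annotated starts in RefSeq, and the counts per gene do not separate them.
C3, chr17:57228137-57228386, GRCm38.p6, minus strand: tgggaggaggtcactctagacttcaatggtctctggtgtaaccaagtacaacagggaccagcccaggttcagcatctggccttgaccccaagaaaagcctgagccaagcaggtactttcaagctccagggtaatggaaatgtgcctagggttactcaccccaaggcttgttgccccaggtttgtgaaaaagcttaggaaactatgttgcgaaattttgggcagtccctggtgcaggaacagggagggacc
Dclk1, first start, chr3:55242114-55242363, GRCm38.p6, plus strand: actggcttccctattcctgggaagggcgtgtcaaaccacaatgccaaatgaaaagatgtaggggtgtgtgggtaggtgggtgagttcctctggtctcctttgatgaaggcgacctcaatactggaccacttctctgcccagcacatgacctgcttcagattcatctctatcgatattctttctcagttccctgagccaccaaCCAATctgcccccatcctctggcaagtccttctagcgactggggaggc
Dclk1, second start, chr3:55461478-55461727, GRCm38.p6, plus strand: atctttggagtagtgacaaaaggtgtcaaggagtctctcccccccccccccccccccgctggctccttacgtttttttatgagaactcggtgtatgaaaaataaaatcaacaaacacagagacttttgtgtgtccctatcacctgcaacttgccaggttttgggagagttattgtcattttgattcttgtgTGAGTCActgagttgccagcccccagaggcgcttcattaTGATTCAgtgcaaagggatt
The window of C3 holds none of these letters. A window that also takes the 50 bases after the start of C3 holds the TATA-box letters. The first window of Dclk1 holds CCAAT, beginning 48 bases before the start, and the second holds the AP-1 letters at 59 and 20 bases before it. These matches describe the sequence only.

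Complement and acute-phase genes made up 4 of the 126. Besides C3 they were Orm1, an acute-phase plasma protein, C1s2, a copy of the complement protease C1s, and Cr2, the complement receptor CD21/CD35. Orm1 had 1, 1 and 3 counts in the sgkiaa1522 libraries (14.97-fold lower, 6.16 to 47.3) and stood at 5.21 ± 0.83 TPM in the sgcontrol libraries (SD, n = 3), the second highest level of all 126. Its neighbour Orm3 had 56, 44 and 67 counts and then 18, 38 and 26 (log2 fold change -0.89, adjusted p = 0.024, edgeR with the filter of 10 counts). C1s2 and Cr2 were near the ceiling, with 10, 10 and 9 counts and then 2, 3 and 2, and 10, 8 and 9 counts and then 3, 2 and 3. C1s2 is uncertain, because its transcript matches that of C1s1 over 99.3% of its length at 96.0% identity. C1s1, the expressed C1s gene, had 3185, 3090 and 1047 counts and then 803, 1117 and 1156, a log2 fold change of -1.08 (adjusted p = 0.032, edgeR), and sgcontrol replicate 3 lay within the range of the sgkiaa1522 libraries.

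Of the wider complement system, the C3a receptor C3ar1 had a log2 fold change of 0.03 (adjusted p = 0.84) and the protease C1ra of -0.77 (adjusted p = 0.00020) in edgeR's test. Masp1, a protease of the lectin route, had 26, 24 and 33 counts and then 110, 126 and 151 (log2 fold change 2.38, adjusted p = 8.3e-05, edgeR with the filter of 10 counts). The C3 partners Cfb and Cfi were at 0 in all libraries. Complement genes therefore did not move in 1 direction.

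Cilia, microtubule and motor genes were 7 of the 126, Dclk1 and Armc2 among them, with 150, 162 and 154 counts in the sgcontrol libraries in all and 4, 11 and 8 in the sgkiaa1522 libraries. Lca5l, a lebercilin-like protein of cilia, had 16, 22 and 14 counts and then 1, 3 and 1 (9.38-fold lower, 3.77 to 30.1). Dnah14, a heavy chain of axonemal dynein, had 15, 12 and 18 counts and then 0, 3 and 2 (8.11-fold lower, 3.23 to 26.2). Dync1i1, an intermediate chain of cytoplasmic dynein, had 7, 22 and 18 counts and then 0, 2 and 1, while its paralog Dync1i2 had a log2 fold change of 0.12 (adjusted p = 0.25, edgeR). Myl10, a myosin light chain, had 12, 8 and 13 counts and none with sgkiaa1522, at least 9.92-fold lower against a floor of 3 counts over the group. The remaining gene, 1700101E01Rik, had 8, 6 and 6 counts and then 1, 2 and 3.

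Genes known from testis, sperm and oocytes were 5 of the 126: Spata20, Spata33, Lrguk, Cabyr and Nobox. After Spata20 their lowest sgcontrol counts were between 4 and 7. A wider list of 24 germ cell and testis genes held none of the 126, and 18 of its genes had at most 3 counts in every library. Only 2 of the 24 had more than 3 counts in each sgcontrol library, where 1.02% of all such genes met the rule. The absence therefore carries no information. Over that list the summed level was 1.38 to 1.89 CPM in the sgcontrol libraries and 2.67 to 6.26 CPM in the sgkiaa1522 libraries. Its 2 genes above 3 counts in each sgcontrol library differed in opposite directions: Rhox5, most of the sum in the sgkiaa1522 libraries, had 4, 10 and 4 counts and then 45, 36 and 44, and Brdt, most of it in the sgcontrol libraries, had 24, 20 and 13 and then 9, 3 and 3.

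Lipid and small-molecule transport genes were 8 of the 126, among them Sptssb, Abcg5 and Abcg8. Slc17a7, which loads glutamate into synaptic vesicles, had 1, 2 and 3 counts in the sgkiaa1522 libraries (8.86-fold lower, 3.84 to 25.1). Mal, a proteolipid of apical membrane sorting, had 14, 11 and 11 counts and then 3, 2 and 0 (6.49-fold lower, 2.54 to 21.2). Ptgs1, the constitutive cyclooxygenase, had 4, 4 and 5 counts and then 2, 0 and 3, and its interval held 1 (2.34-fold, 0.784 to 8.40). Ptgs2, the inducible cyclooxygenase, was far more abundant and was higher in the sgkiaa1522 libraries, with 10460, 8624 and 7277 counts and then 15575, 22483 and 22953 (log2 fold change 1.36, adjusted p = 0.00013, edgeR). Slco4a1 and Cyp2ab1 were at 4 counts in their lowest sgcontrol library. Of 188 solute carrier genes with more than 3 counts in each sgcontrol library, 2 (1.06%) were among the 126, Slc17a7 and Slco4a1, where 1.02% of all genes met the rule.

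Among other enzymes, Entpd3, which breaks down extracellular nucleotides, had 32, 39 and 17 counts and then 0, 0 and 3 (26.4-fold lower, 8.76 to 131). Ggt7, of the gamma-glutamyltransferase family, had 16, 25 and 17 counts and then 2, 1 and 2 (10.5-fold lower, 4.23 to 33.4). Sod3, the extracellular superoxide dismutase, had 8, 6 and 9 counts and then 0, 0 and 1, while the cytosolic Sod1 had a log2 fold change of -0.31 (adjusted p = 0.0061) and the mitochondrial Sod2 of 0.09 (adjusted p = 0.22) in edgeR's test. Ggt7 shares 197 exon bases on the opposite strand with Acss2, which had 746, 803 and 664 counts and then 213, 216 and 219. Whether the counting used strand is not given in the sources used here.

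**Figure D3:**
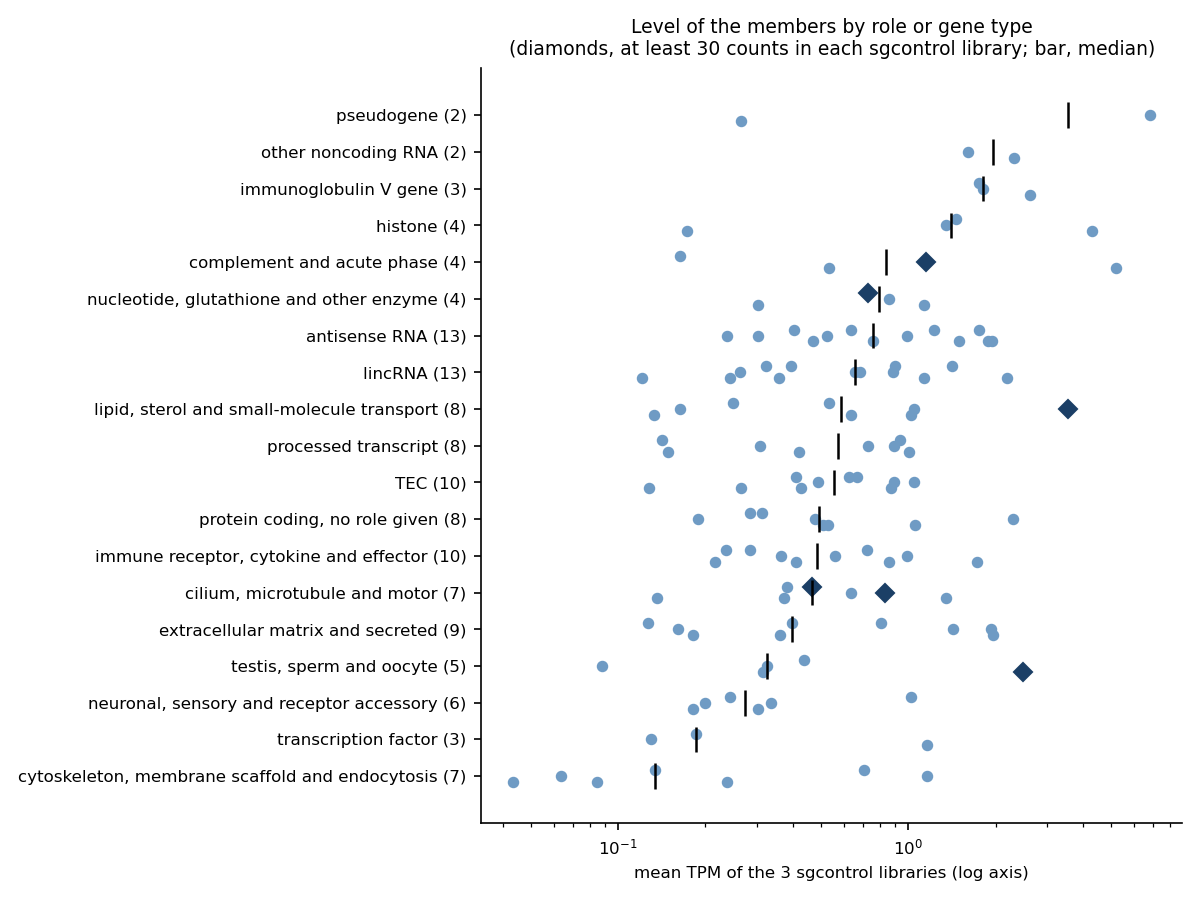
Mean TPM over the 3 sgcontrol libraries (x axis, log scale) of each of the 126 genes, in rows by the role of protein-coding genes or by the type of other genes, with the number of genes in brackets. Diamonds are the 6 genes with at least 30 counts in each sgcontrol library and bars are medians; Sptssb is the highest of the 6 at 3.56 TPM, and the median over all 126 is 0.529 TPM.

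Immune receptors, cytokines and effectors were 10 of the 126, and 4 of them had no count in the sgkiaa1522 libraries. Cd33, a myeloid receptor for sialic acid, had 25, 18 and 15 counts and then 1, 0 and 2 (17.4-fold lower, 5.68 to 87.0). Oas1e, of the oligoadenylate synthetase family, had 26, 15 and 22 counts and then 0, 1 and 3 (14.2-fold lower, 5.28 to 53.7). The 4 genes at 0 were Il18rap (7, 11 and 12 counts in the sgcontrol libraries), the accessory chain of the interleukin-18 receptor, Ccl20 (10, 9 and 6), a chemokine for CCR6, Nos2 (5, 12 and 9), the inducible nitric oxide synthase, and Slamf9 (5, 5 and 5), a SLAM family receptor. They were at least 9.02-, 7.51-, 7.81- and 4.51-fold lower against the floor. Zap70, H2-M2, Ly6g6d and Tlr1 had between 4 and 12 counts in each sgcontrol library, and between 0 and 3 in each sgkiaa1522 library.

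Ccl20 was the single gene of the 126 on a list of 33 NFκB targets, of which 26 had more than 3 counts in each sgcontrol library. That is 3.85% of them, where the rule was met by 1.02% of all genes and by 11.9% at the level of Ccl20. Of the 18 listed genes that passed the filter of 500 counts, 6 were called lower and 2 higher by edgeR's test, with a median log2 fold change of -0.52, where 4.34% and 2.74% of the 10046 tested genes were called. Of the relatives of Oas1e, Oas1b had 29, 24 and 26 counts and then 15, 19 and 33, Oas1c had 51, 49 and 66 and then 36, 40 and 29, and Oas3 had a log2 fold change of -0.51 (adjusted p = 0.036, edgeR). None of the 14 interferon-stimulated genes above 3 counts in each sgcontrol library was among the 126.

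The 3 immunoglobulin heavy-chain V segments Ighv14-1, Ighv14-2 and Ighv7-1 were all the V segments with more than 3 counts in each sgcontrol library, and all were at 0 in the sgkiaa1522 libraries. They had 19, 13 and 13 counts over the sgcontrol libraries. Ighv14-1 and Ighv14-2 are 97.4% identical over 349 bases, so their counts may be shared between them or with further copies. The leukocyte markers of a list of 11 summed to 2.48 to 3.67 CPM in the sgcontrol libraries and 2.77 to 3.54 CPM in the sgkiaa1522 libraries. Within that sum, Coro1a had 19, 13 and 14 counts and then 5, 5 and 5, and Lck had 20, 30 and 27 and then 35, 50 and 37. Cd3d, Cd3e, Cd4, Cd8a and Nkg7 were at 0 in all 6 libraries, and Ptprc, the pan-leukocyte CD45, had 14, 1 and 6 counts and then 1, 2 and 2. The macrophage and neutrophil list summed to 25.9 to 28.7 CPM and then 46.7 to 53.9 CPM, with Adgre1, Ly6g and Elane at 0 throughout. Most of that sum came from Cd14, with 274, 344 and 312 counts and then 371, 635 and 596, and Cd68, with 21, 23 and 19 and then 122, 235 and 186. Lyz2, with 63, 18 and 37 and then 11, 17 and 16, was not higher. In sgcontrol replicate 1, Ptprc, the macrophage lysozyme Lyz2 and the lung genes Scgb1a1 and Sftpc were higher than in the other 2 sgcontrol libraries, with 293, 31 and 42 counts for Scgb1a1 and 110, 20 and 45 for Sftpc. Of the other lung genes, Sftpa1 with 29, 0 and 10 counts, Sftpd with 7, 2 and 1, Lamp3 with 13, 3 and 6, Hopx with 10, 2 and 0 and Ager with 46, 25 and 28 also had their highest count in replicate 1, as did Abca3 with 3106, 3059 and 2758 and Foxa2 with 1570, 1332 and 1394. Sftpb with 296, 445 and 399, Nkx2-1 with 970, 1096 and 227, Napsa with 19, 18 and 21 and Foxa1 with 775, 792 and 804 did not. The immune genes of the 126 summed to 6.43, 5.34 and 5.64 CPM over the same 3 libraries, and whether other cell types had a part in them was not tested. The mast cell list summed to 657 to 765 CPM and then 67.1 to 99.8 CPM, with Mcpt1 the largest share in the sgcontrol libraries (531 to 620 CPM) and Mcpt8 in the sgkiaa1522 libraries (40.6 to 47.5 CPM), while Cpa3, Fcer1a and Ms4a2 were at 0 throughout.

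Matrix and secreted genes were 9 of the 126. Serpinb1b, a protease inhibitor, had 27, 33 and 17 counts and none in the sgkiaa1522 libraries, at least 23.1-fold lower against the floor. Its paralog Serpinb1a had 44, 35 and 33 counts and then 3, 16 and 4 (log2 fold change -2.14, adjusted p = 0.0057, edgeR with the filter of 10 counts), and the neighbouring Serpinb9b had 101, 106 and 109 and then 15, 21 and 16 (log2 fold change -2.44, adjusted p = 5.0e-05, same fit). Of 12 serpins above 3 counts in each sgcontrol library, 3 (25%) were among the 126, where 1.02% of all genes and 11.9% of those at 4 to 9 counts met the rule. The other two, Serpina11 and Serpina12, lie 38.8 kb apart on chromosome 12, with 9, 8 and 10 counts and then 0, 0 and 3, and 10, 7 and 10 counts and then none. Over the 7 serpins with more than 500 counts, edgeR called 2 lower and 1 higher, numbers too small to set against the 4.34% and 2.74% of all tested genes.

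Col4a3, a chain of the specialised collagen of basement membranes, had 17, 13 and 7 counts and then 1, 1 and 1 (11.1-fold lower, 3.52 to 56.4). Col4a4, the chain with which it is assembled, starts 0.072 kb away on the opposite strand. It had 70, 47 and 54 counts and then 8, 1 and 16, a log2 fold change of -2.58 (adjusted p = 0.0061, edgeR with the filter of 10 counts). The widely used chains Col4a1 and Col4a2 had log2 fold changes of -0.49 (adjusted p = 0.00077) and -0.04 (adjusted p = 0.62), and Col4a5 of 1.09 (adjusted p = 0.00051), in edgeR's test. Timp3, an inhibitor of matrix metalloproteinases, had 12, 5 and 4 counts and then 0, 0 and 3, and its relative Timp1 had a log2 fold change of -1.05 (adjusted p = 0.00052, edgeR). Sema3g, Dmkn, Lgals2 and Cryba4 had 4 or 5 counts in their lowest sgcontrol library.

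Among cytoskeletal and membrane scaffold genes (7 of the 126), Nhs is of the same family as kiaa1522. It had 11, 6 and 7 counts and then 0, 3 and 0 (7.21-fold lower, 2.19 to 37.4). Its family member Nhsl1 had 35, 46 and 19 counts and then 21, 21 and 44. Krt36, a hair keratin, had 11, 16 and 13 counts and then 1, 3 and 2, while Krt8 had a log2 fold change of -0.40 (adjusted p = 0.0046, edgeR). Ank2 and Dnm3, an ankyrin and a dynamin, had the lowest levels of all 126 per length, 0.0434 ± 0.0085 and 0.0635 ± 0.023 TPM (SD, n = 3). Dnm2, the dynamin present in most tissues, had a log2 fold change of 0.43 (adjusted p = 0.0010, edgeR).

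The transcription factors among the 126 were Creb3l1, Meis1 and Sp7. Creb3l1, a factor held in the endoplasmic reticulum until it is cut, had 22, 12 and 27 counts and then 1, 2 and 3 (9.17-fold lower, 3.98 to 25.9). Meis1, a homeobox partner of HOX and PBX proteins, had 9, 9 and 10 counts and then 0, 0 and 1 (25.2-fold lower, 4.17 to 1032), whereas Meis2 had 119, 157 and 132 and then 166, 270 and 215 (log2 fold change 0.82, adjusted p = 0.0014, edgeR). Sp7, a factor of osteoblasts, had 4, 5 and 4 counts and then 1, 0 and 1. No zinc finger gene of the Zfp, Zscan, Zkscan and Zbtb families was among the 126, of 356 with more than 3 counts in each sgcontrol library, where 1.02% of all genes met the rule, and 288 of the 356 were above the filter of 500 counts, which none of the 126 passed.

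Neuronal, sensory and receptor accessory genes were 6 of the 126, and 1 library decided the level of Ramp2. This accessory protein of the calcitonin receptor-like receptor had 8, 6 and 53 counts in the sgcontrol libraries, the highest being 9.82 times the lowest in CPM, and none in the sgkiaa1522 libraries. Its exons share 1103 bases on the same strand with Vps25, whose sgcontrol counts were 608, 488 and 453 and were lowest in replicate 3. Ramp1 had 21, 24 and 24 counts and then 4, 4 and 4 (log2 fold change -2.32, adjusted p = 0.0012, edgeR with the filter of 10 counts). The receptor itself, Calcrl, had 33, 25 and 38 counts and then 51, 101 and 63 (log2 fold change 1.297, adjusted p = 0.0036, same fit). Across all 126 genes, the highest sgcontrol level was in replicate 3 for 63 genes, in replicate 2 for 32 and in replicate 1 for 31. Only Ramp2 and the lens crystallin Cryba4, with 5, 4 and 15 counts, differed by more than 3 times among the sgcontrol libraries.

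The 4 histone genes were Hist1h1d, Hist1h2ab, Hist1h3c and Hist1h4k, with 4 to 15 counts in each sgcontrol library and 0 to 3 in each sgkiaa1522 library. Hist1h1d, Hist1h3c and Hist1h2ab lie within 500 kb of each other in the chromosome 13 cluster. The core histones are uncertain, since near-identical copies cover 63.8% or more of their transcripts, and reads may be split among them. Of 26 such copies, 21 (80.8%) had a lower mean CPM in the sgkiaa1522 libraries, against 58.2% of the 5505 genes with the same range of summed sgcontrol counts (1 to 44). The 5 copies of Hist1h4k were all lower, among them Hist1h4h with 4, 9 and 5 counts and then 4, 2 and 0. Hist1h2ac had 5, 3 and 9 counts and then 3, 6 and 9. Of the 8 protein-coding genes with no role given here, 2310007B03Rik was the strongest, with 16, 16 and 19 counts and none in the sgkiaa1522 libraries (at least 15.3-fold lower against the floor).

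Noncoding genes were frequent among the 126, as they were among all genes of that level. By type, 75 (59.5%) were protein coding, 46 (36.5%) were long noncoding RNAs or TEC transcripts, which await experimental evidence, 3 were immunoglobulin V segments and 2 were pseudogenes. Over all genes with more than 3 counts in each sgcontrol library, 91.2% were protein coding. At 4 to 9 counts, however, the protein-coding share was 53.1% of the chosen genes and 55.6% of all genes. It was 75% and 64.8% at 10 to 29 counts. All 6 genes with at least 30 counts were protein coding, as were 95.6% of all genes at that level.

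**Figure D4:**
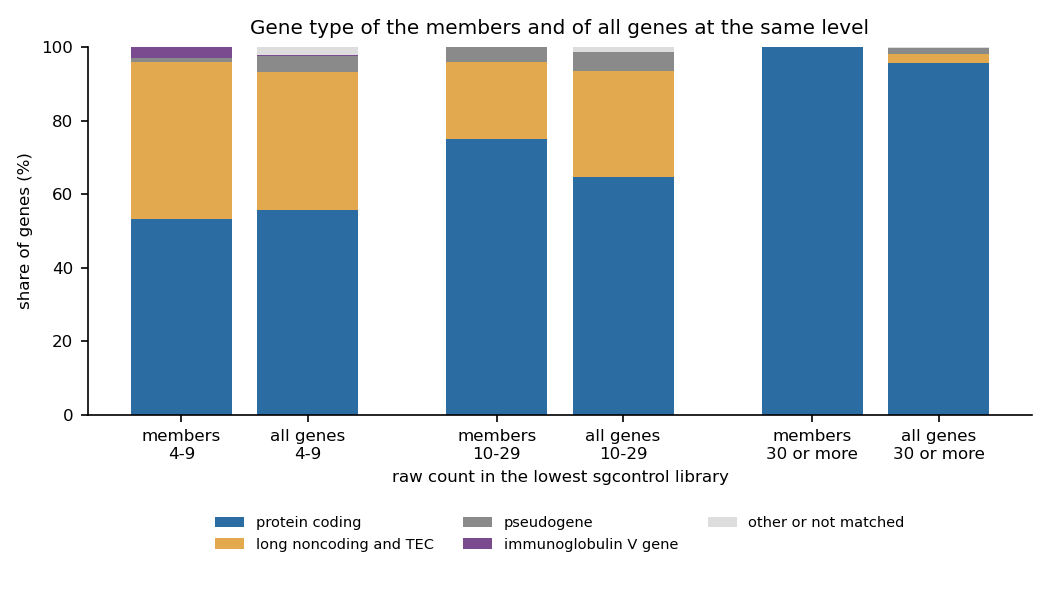
Share of genes by type (y axis, percent) among the 126 genes and among all genes in the same band of the raw count in the lowest sgcontrol library (x axis). Protein-coding genes are 53.1% of the chosen genes and 55.6% of all genes in the lowest band.

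The noncoding genes were 13 lincRNAs, 13 antisense RNAs, 10 TEC transcripts, 8 processed transcripts, 1 sense intronic RNA and 1 RNA from a bidirectional promoter. Of the 46, 5 had 10 or more counts in the lowest sgcontrol library. Gm10825 led them with 23, 17 and 20 counts and then 1, 0 and 0 (54.1-fold lower, 9.34 to 2172). Gm26581 had 10, 13 and 10 counts and then 0, 0 and 1 (29.8-fold lower, 4.98 to 1210). The pair match over 4480 aligned bases at 99.6% identity, so that unique mapping leaves few reads to tell them apart, and they count as little more than 1 observation. The unprocessed pseudogene Gm7094 had 16, 16 and 19 counts and then 1, 1 and 1, and its source Cetn4, a centrin with 99.5% identity over its full length, had 99, 140 and 87 counts and then 13, 14 and 18.

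In exon length, exon number and transcript GC content, the 126 genes had medians close to those of other genes of their level. Their median exon length was 2623 bases, against 2577 for all genes with 4 to 29 counts in the lowest sgcontrol library and 4238 for all genes with more than 3. The median of exons in the longest transcript was 4, 4 and 9 in the same order, and the median GC content of transcripts was 50.4%, 50.8% and 50.7%. A comparison of promoter CpG content is void, since RefSeq windows were matched for 82 of the 126 genes (65.1%). Of the 126, 36 shared exon bases with another gene, 33 on the opposite strand and 5 on the same strand, and none shared 50% or more of its exon bases. The largest share was that of Ankdd1b with Poc5, 43.8%, where Poc5 had 272, 280 and 222 counts and then 256, 356 and 356.

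The genes were spread over 19 of the mouse chromosomes, with 14 each on chromosomes 1 and 5, 1 on X, and none on 19 or Y. There were 15 pairs of next genes within 500 kb, which held 27 of the 126. The same count was not made for other genes of that level, so it does not show clustering. Some pairs are near-identical copies, such as Ighv14-1 and Ighv14-2, or overlap, such as Abcg5 and Abcg8. On chromosome 10, E030030I06Rik, Gm26581 and Gm10825 lie among the Raet1 and H60 genes, which encode ligands of the killer cell receptor NKG2D. Raet1e had 523, 580 and 517 counts and then 124, 165 and 129 (log2 fold change -1.78, adjusted p = 3.5e-05, edgeR with the filter of 10 counts), Raet1d had 158, 198 and 153 and then 38, 46 and 46 (-1.79, 7.6e-05), and H60b had 254, 222 and 213 and then 67, 104 and 98 (-1.20, 0.00019). Next to Nos2, the galectin gene Lgals9 had 1201, 1483 and 1443 counts and then 305, 461 and 434 (log2 fold change -1.63, adjusted p = 2.2e-05, same fit).

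Spata20 was the only one of the 6 genes of highest count with a neighbour called lower, and this held on both sides. Cacna1g, a calcium channel gene 4.71 kb away, had 167, 167 and 153 counts and then 37, 38 and 45 (log2 fold change -1.84, adjusted p = 9.4e-05, edgeR with the filter of 10 counts). Epn3, an endocytic epsin gene 3.42 kb away on the other side, had 301, 448 and 373 counts and then 59, 53 and 73 (-2.41, 8.0e-05). Around Dclk1, Sptssb, Rnf122, C3 and Armc2, the log2 fold changes of the nearest genes were between -0.79 and 0.45.

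Over all 126 genes, the nearest genes on each side with at least 30 counts in each sgcontrol library were 235. Their median log2 fold change was -0.11, and 26 (11.1%) were called lower and 2 (0.851%) higher. Among all 10769 such genes outside the 126 the median was -0.03, and 5.82% were called lower and 2.48% higher. The neighbours come from the same libraries and the same contrast as the rule, some overlap the gene beside them, and no test was made.

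**Figure D5:**
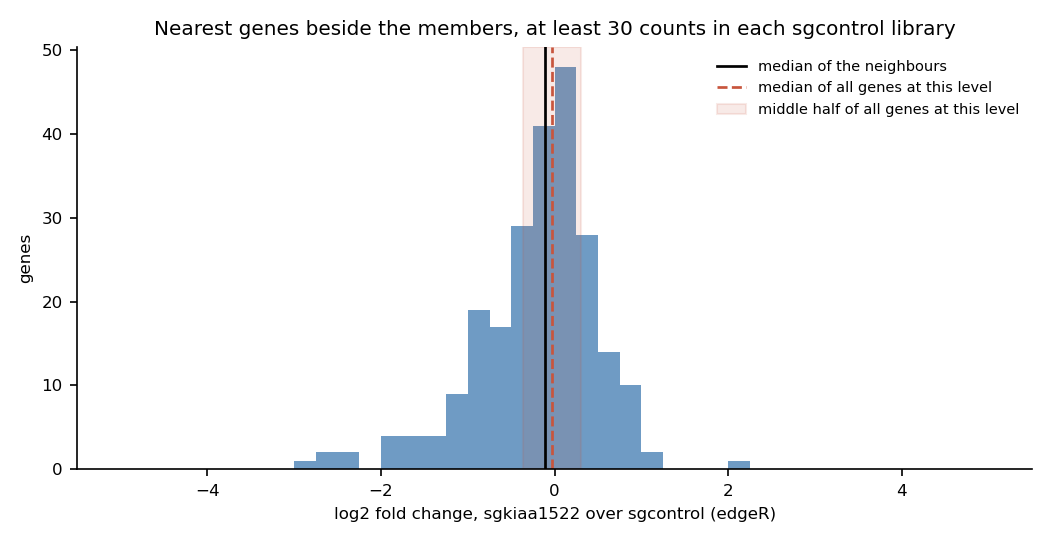
Number of genes (y axis) by log2 fold change, sgkiaa1522 over sgcontrol (x axis), for the 235 genes nearest to the 126 genes on either side. The black line is their median, -0.11, and the dashed line and shaded band are the median, -0.03, and the middle 50% of all genes with at least 30 counts in each sgcontrol library; more neighbours lie below -1 than above 1.

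For 22 of the 126, 77 partner genes were listed by hand as subunits, paralogs or receptors. The list was made after the 126 were known and leaves out partners that are among them, such as Abcg8 for Abcg5, and 22 of its genes had at most 3 counts in every library. Of the 36 that passed the filter of 500 counts, 2 were called lower, C1s1 and Timp1, and 2 higher, Ptgs2 and Col4a5. These numbers are too small to set against the 4.34% lower and 2.74% higher of all 10046 tested genes. Their median log2 fold change was 0.01, and that of all tested genes was -0.01.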

How the data were processed

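RNA from 3 sgcontrol and 3 sgkiaa1522 libraries of 889 cells was sequenced, and groups and replicate numbers came from the labels. The authors trimmed adaptors and removed rRNA reads with Seqtk, mapped to GRCm38 with Hisat2 2.0.4 and counted uniquely mapped fragments with Stringtie 1.3.0. The files they deposited hold whole-number counts per Ensembl gene, not normalized. The genes of interest, the rule, the gene lists and the partner genes were chosen with earlier results of these data known.

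Here CPM used totals scaled by TMM factors, and TPM used exon lengths of GENCODE M21, to which 34344 of 34745 identifiers, and all 126 genes, were matched. Folds are ratios of summed counts scaled by library size, with exact conditional (Clopper-Pearson) 95% intervals. With no sgkiaa1522 count the fold is a lower bound against 3 counts over the group. Intervals and floors cover counting error only.

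The background came from edgeR 4.0.16 (quasi-likelihood test, TMM, R 4.3.3) on genes with more than 500 counts, as in the study, where a call needed a Benjamini-Hochberg adjusted p up to 0.05 and a change of 1 or more on the log2 scale, and from the same fit with a filter of at least 10 counts. The first fit was tested on simulated counts of genes above 500 counts, and the fit with the filter of 10 counts was not. Each result named with edgeR alone is from the first fit. Exon overlaps came from bedtools 2.31.1 and copies from blastn 2.17.0+ (at least 95% identity over 100 bases). Promoter windows are RefSeq's (GRCm38.p6). Genes named are the 6 with at least 30 counts, the 10 next protein-coding ones, members of lists, families or pairs within 500 kb, those that share exons, those at the thresholds, and neighbours. Other genes named by role were picked after their values were seen. DESeq2 1.42.0, other filters and scalings, the replicate block, and each library left out were alternatives.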

Additional observations from a re-analysis of the deposited data

How the results depend on the processing

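The number of genes that met the rule was set by its thresholds. It was 43 with a ceiling of 1 count and 278 with a ceiling of 5, against 126, and between 166 and 194 when 1 library was left out: 191 without sgcontrol replicate 1 and 194 without sgkiaa1522 replicate 2. With thresholds scaled to library size it was 123, of which 110 were among the 126. Of the genes with at least 30 counts, 2 met a ceiling of 1, 0 met a floor of 50 counts in each sgcontrol library, and between 6 and 9 were found with 1 library left out; the scaled thresholds gave the same 6 genes. The share of protein-coding genes was 59.5% over the 126 and 100% over these 6.

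The study's filter gave 436 genes lower and 275 higher. The filter of at least 10 counts gave 946 and 791, and no filter 941 and 767, with more genes tested in each. The replicate block gave 434 and 285, and same-numbered libraries did not deviate together (correlations across genes of -0.21, -0.051 and -0.17), so the numbers do not pair the libraries. Leaving out 1 library gave 409 to 492 lower and 256 to 354 higher. DESeq2 and RLE size factors changed neither count by more than 1.5 times. The median log2 fold change of neighbours was -0.15 over all genes within 100 kb.

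The folds of the 16 genes drawn by library ranged from 7.53 to 152 over 128 alternatives. A fold below 1 could not arise for genes chosen by this rule, so its absence says nothing. For 13 of the 16 the fold moved by more than 1.5 times when a sgkiaa1522 library was left out, and the 3 that did not were C3, Ggt7 and Slc17a7. Without replicate 2, Armc2 moved to 22.7, Spata20 to 27.3, Rnf122 to 24.7, Dclk1 to 26.9, Cd33 to 10.7, Entpd3 to 16.2, Serpinb1b to 14.2 and 2310007B03Rik to 9.40, and Sptssb to 73.6, Abcg8 to 44.3 and Lca5l to 14.4. Without replicate 3, Armc2 moved to 71.2, Spata20 to 85.7, Rnf122 to 25.9, Entpd3 to 16.98, Abcg8 to 15.4, Serpinb1b to 14.9 and 2310007B03Rik to 9.84, and Oas1e to 36.5, Cd33 to 33.6 and Orm1 to 24.03. Without replicate 1, Dclk1 moved to 97.95. With at most 3 counts a library, each of these folds rests on a few reads. Where leaving out a library left no count (Armc2, Spata20 and Rnf122 without replicate 2, Entpd3 without replicate 3, and Serpinb1b and 2310007B03Rik without either), the value is a lower bound against 3 counts over the group. The cause of the other shifts of counts was not tested. Depth limits 96 of the 126 genes, whose lowest sgcontrol count was under 10.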
